A study of Mus musculus with 2 samples.

Results

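The measurements describe 10 genes that store, carry, admit and release iron or break down haem: Ftl1, Fth1, Tfrc, Trf, Slc40a1, Slc11a2, Cp, Hmox1, Hpx and Hamp. They were chosen by name, with earlier results of these data known, and all 10 were found among the 43346 Ensembl genes of both deposited gene tables. Their 58 transcripts were taken from the 103639 in both transcript tables.

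The RNA came from adult C57BL/6J mice aged 8 weeks, from the gonadal fat pad, with no treatment or introduced allele named in the labels. Polyadenylated RNA longer than 200 nucleotides, depleted of ribosomal RNA, was sequenced as stranded paired reads of 76 nucleotides. There were 2 libraries, labelled biological replicates 1 and 2, in a single group, so no contrast between conditions was possible and no p-value is given. Both labels describe males and females pooled and carry the same donor identifier, and the spread between the libraries may be biological or technical. Levels are given as TPM, in which fragments are divided by transcript length and scaled to a fixed total, so that genes can be compared with each other. All are levels of mRNA, and protein was not measured.

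Iron inside cells is kept in ferritin, a hollow shell of light and heavy subunits, while iron in blood travels on transferrin and enters cells through the transferrin receptor. Ferroportin is the exporter, and the liver hormone hepcidin removes it from the cell surface. Haem, the iron-holding ring of haemoglobin, is bound in plasma by hemopexin and opened by haem oxygenase, which frees the iron. When iron is scarce, the iron regulatory proteins bind a hairpin in certain mRNAs, the iron-responsive element: in a 5′ UTR this holds back translation, and in a 3′ UTR it protects the mRNA from decay. In fat, iron is held by adipocytes and by resident macrophages.

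Iron-responsive elements were searched for in annotated mRNAs because they are the sequence that several of these genes share. The pattern, on the mRNA strand only, was an unpaired C, a 5-base stem arm, the 6-base loop CAGTGN and a second 5-base arm, with all 5 pairs of the arms required and G-U pairs allowed. Transcript sequences were those of GENCODE M21 on build mm10, with T written for U. Of the 58 member transcripts, 53 were in that annotation and 48 had the length given in the files. Those of another length were Fth1-201 (866 nucleotides in the files, 929 in M21), Hmox1-201, Hmox1-202, Hpx-201 and Hamp-201. For these the searched model was not the one whose TPM is given. Below, each 29-base stretch is written 5′ to 3′ with the loop in capitals, first the 3 members with an element in the 5′ UTR:
Ftl1: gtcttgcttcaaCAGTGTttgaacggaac
Fth1: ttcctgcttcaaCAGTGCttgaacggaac
Slc40a1: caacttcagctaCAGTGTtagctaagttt

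The 17-base core of the Ftl1 element lay at chr7:45459785-45459801 on the minus strand, ending 153 nucleotides before the start codon of Ftl1-201. That of Fth1 lay at chr19:9982738-9982754 on the plus strand, 115 nucleotides before the start codon of Fth1-201. That of Slc40a1 lay at chr1:45925471-45925487 on the minus strand, 207 nucleotides before the start codon of Slc40a1-201. An element of this form was present in the 5′ UTR of 31 of 20251 genes with an annotated 5′ UTR (0.153%), and of 28 of the 13007 such genes that reached 1 TPM in each library (0.215%). Among the 31 genes, Ftl1 and Fth1 had the highest and second highest mean level and Slc40a1 ranked 24.

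Tfrc carried 4 elements in the 3′ UTR of Tfrc-201, the transcript for the whole receptor, in this order along the mRNA:
Tfrc element 1: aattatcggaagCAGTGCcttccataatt
Tfrc element 2: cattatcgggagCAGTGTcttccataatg
Tfrc element 3: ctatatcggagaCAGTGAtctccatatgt
Tfrc element 4: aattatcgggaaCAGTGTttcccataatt

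Their cores lay on the plus strand at chr16:32631225-32631241, chr16:32631604-32631620, chr16:32631669-32631685 and chr16:32631716-32631732. The first began 889 nucleotides and the fourth 1380 nucleotides after the stop codon. Such an element stood in the 3′ UTR of 127 of 20636 genes (0.615%), and of 103 of the 13157 of these that reached 1 TPM in each library (0.783%). Tfrc was the single member of the 10 found in this search. In Slc11a2-205, a site 38 nucleotides after the stop codon was found with 4 of the 5 pairs:
Slc11a2-205: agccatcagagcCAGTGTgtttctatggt

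This site, at chr15:100395159-100395175 on the minus strand, also passed when all 5 pairs were required but 1 unpaired base was allowed after the loop. Each of those looser forms was commoner among all genes, at 4.18% and 1.72% of genes in the 3′ UTR. No element of any of the searched forms was found in the annotated UTRs of Trf, Cp, Hmox1, Hpx or Hamp, which says only that these letters were not in those UTRs.

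**Figure D1:**
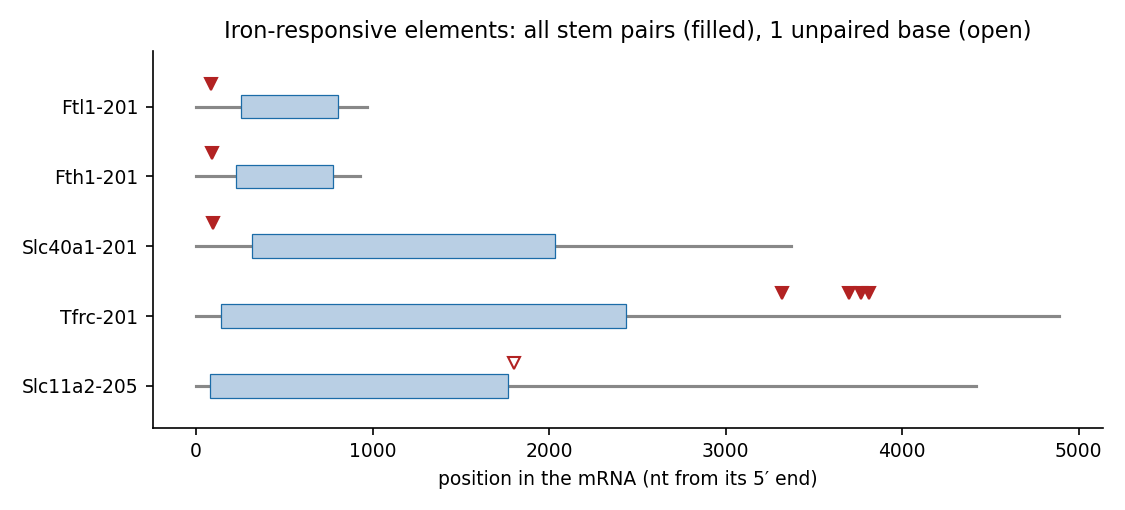
Map of 5 member mRNAs as modelled in M21, drawn to scale with nucleotides from the 5′ end on the x axis. The UTRs are lines, the coding part is a box and each element is a triangle. The filled triangles of Ftl1-201, Fth1-201 and Slc40a1-201 stand before the coding part, the 4 of Tfrc-201 stand after it, and the open triangle of Slc11a2-205 marks the site with 1 unpaired base.

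The counts of the libraries differed by more than sampling noise (chi-square of 136 per degree of freedom over 19548 genes), so they are not 1 library deposited again, but this does not show that they came from separate animals. They are given as 2 samples, as labelled. All 8 adipocyte markers were at 1 TPM or above in each library, summing to 13813 and 12934 TPM, although Lep was at 92.1 and 574.8 TPM. All 8 markers of the epididymis, the sperm duct that lies against this fat pad in males, also reached 1 TPM in each library, and summed to 31832 and 21364 TPM. Macrophage markers, of cells known to recycle iron, summed to 565.6 and 666.5 TPM, with 8 of 10 at 1 TPM or above in each library. Which cells supplied the ferritin, transferrin or any other member mRNA was not tested.

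Of the 10 genes, 9 reached 1 TPM in each library, against 33% of all genes (14303 of 43346) and 61.6% of the protein-coding genes (13235 of 21474), the class to which all 10 belong. Replicate 1 summed to 47106979 estimated fragments of genes and replicate 2 to 54129473, of which the 10 members held 0.334% and 0.361%. Ftl1 and Fth1 together made up 80.6% and 80.0% of the members' TPM. The order by mean level was Ftl1, Fth1, Trf, Slc11a2, Cp, Hmox1, Tfrc, Slc40a1, Hpx and Hamp. Neighbours in that order did not overlap between the libraries from Ftl1 down to Slc40a1, while Slc40a1 and Hpx, and Hpx and Hamp, did overlap.

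**Figure D2:**
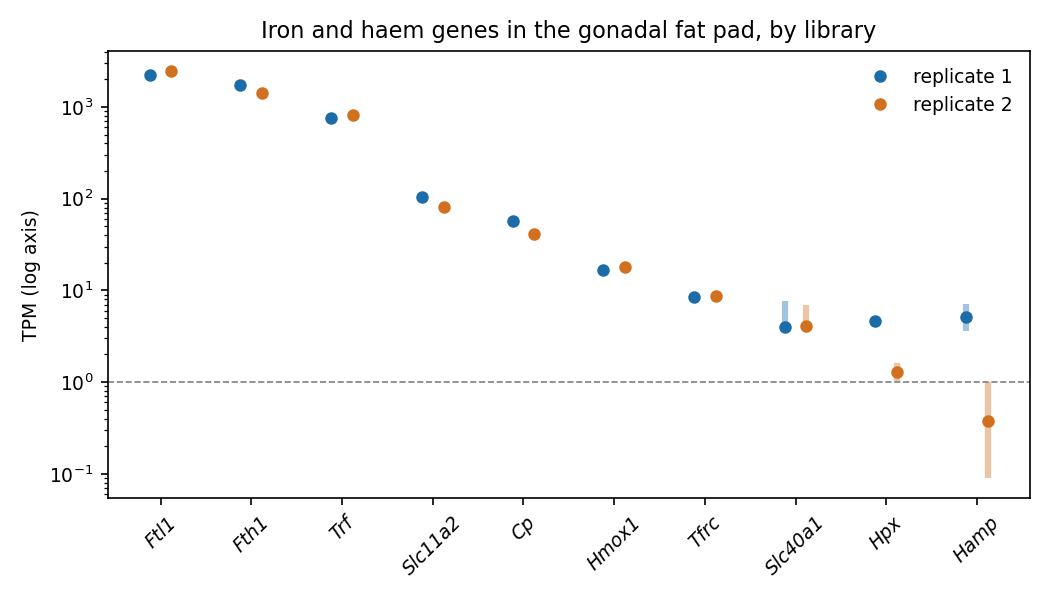
TPM of the 10 genes in replicates 1 and 2 on a log axis, with a dashed line at 1 TPM. The authors' deposited interval for each value is a pale bar, most of them shorter than the point. The values of Slc40a1 lie below their intervals, and those of Ftl1 and of Fth1 in replicate 1 lie slightly above theirs. The points run from 2457 TPM for Ftl1 in replicate 2 to 0.38 TPM for Hamp in replicate 2, and the points of a gene lie far apart for Hpx and Hamp.

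The storage genes were among the most abundant mRNAs in the fat pad. Ftl1, the ferritin light chain, which helps form the mineral core (chr7:45457944-45459884, minus strand), was at 2255 TPM in replicate 1 and 2457 TPM in replicate 2. Its mean was 2356 TPM ± 142 (SD, n = 2), and it ranked 52 and 41 among all genes. Fth1, the heavy chain, whose ferroxidase centre oxidises iron as it enters the shell (chr19:9980598-9985098, plus strand), was at 1741 and 1423 TPM, with a mean of 1582 TPM ± 225 (SD, n = 2) and ranks of 77 and 104. Ftl1 was above Fth1 in both libraries, and the light to heavy ratio was 1.30 in replicate 1 and 1.73 in replicate 2, with a mean of 1.51 ± 0.30 (SD, n = 2).

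That ratio rested on how Ftl1 fragments were divided among transcripts. The coding transcript Ftl1-201 (968 nucleotides), which carries the element, held 72.9% and 56.0% of the gene's TPM. A second transcript, ENSMUST00000135869 (943 nucleotides), held 26.5% and 43.3%, from 16164 and 35581 fragments. It is 1 of 4 Ftl1 transcripts in the deposited tables that M21 does not list, and what it encodes was not analysed here. Taking only Ftl1-201 against Fth1-201, the order turned: Ftl1-201 stood at 1644 and 1377 TPM, below Fth1 in each library, and the ratio was 0.944 and 0.967. Over the libraries, Ftl1-201 was higher in replicate 1, whereas ENSMUST00000135869 and the whole gene were higher in replicate 2.

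Copies of ferritin genes could also take fragments from Ftl1. Of 7 genes whose transcripts matched that of Ftl1 at 90% identity or more over at least 50% of its length, Ftl1-ps1 held nearly all of the fragments. It matched Ftl1-201 at 99.6% identity and had 1291 fragments (49.1 TPM) in replicate 1 and 4229 fragments (130.4 TPM) in replicate 2. The 7 genes together held 2.09% and 5.07% as many fragments as Ftl1, and the fragments of so close a copy and of Ftl1 cannot be told apart with certainty. Adding them to Ftl1 gave a ratio of 1.32 and 1.81. The only gene that passed the same cuts for Fth1, Gm6977, had no fragments. Fth-ps2, a processed pseudogene that did not pass them, had 5 and 3 fragments. The testis ferritin gene Fthl17a had 4 fragments in each library, and its copies Fthl17b to Fthl17f had 0.

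Ferritin is filled and emptied by other proteins, and 6 of the 7 genes on that list reached 1 TPM in each library. Pcbp1, an iron chaperone that loads ferritin, was at 142.8 and 77.9 TPM and Pcbp2 at 103.4 and 68.4 TPM. Bola2, which works with iron-sulphur clusters, was at 61.9 and 54.4 TPM. Ncoa4, the receptor that carries ferritin to the lysosome, was at 55.4 and 59.2 TPM. The exception was Ftmt, mitochondrial ferritin, at 0.26 and 0.09 TPM. None of the list differed over 2-fold between the libraries among the 6 with enough fragments.

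The mRNA of the iron carrier in plasma was far more abundant than that of its receptor. Trf, transferrin (chr9:103204001-103230444, minus strand), was at 759.5 and 816.3 TPM, with a mean of 788 ± 40.1 (SD, n = 2) and ranks of 167 and 152. Tfrc, the receptor that takes up loaded transferrin (chr16:32608920-32632794, plus strand), was at 8.38 and 8.74 TPM, with a mean of 8.56 ± 0.25 (SD, n = 2). The Trf to Tfrc ratio was 90.6 in replicate 1 and 93.4 in replicate 2, and 89.7 and 95.7 with complete coding transcripts alone. Tfr2, the second transferrin receptor, known from liver, was at 0.42 and 0.45 TPM.

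Both genes were split among transcripts. In Trf, the complete coding transcripts Trf-201 and Trf-203 held 50.3% and 55.6% of TPM but 85.8% and 88.5% of fragments. The rest of the TPM fell on the short models Trf-205 (634 nucleotides, annotated for nonsense-mediated decay), at 24.6% and 20.6%, and Trf-206 (563 nucleotides, an incomplete coding model), at 24.3% and 23.2%. Trf-201 was lower in replicate 1 (252.7 TPM) than in replicate 2 (351.8 TPM), and Trf-203 higher (129.2 and 101.7 TPM). In Tfrc, Tfrc-201 held 45.5% and 52.5% of TPM and the retained-intron model Tfrc-204, which holds the same 4 elements, 43.6% and 42.5%. Transcripts with the elements made up 89.1% and 94.98% of Tfrc TPM.

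Slc11a2, the divalent metal transporter that moves iron across the membrane of the gut cell and out of endosomes (chr15:100387898-100425072, minus strand), was at 103.8 and 81.3 TPM. Its mean was 92.6 ± 15.9 (SD, n = 2), between Trf and Cp. The gene makes complete coding mRNAs with different 3′ ends, and these were nearly balanced. Slc11a2-205, with the site printed above, was at 24.2 and 17.7 TPM, and Slc11a2-201, whose 3′ UTR had no such site, was at 20.2 and 17.2 TPM. Of the TPM on those 2 transcripts, Slc11a2-205 held 54.4% and 50.7%, and of their fragments 64.1% and 60.6%.

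The transcript with the largest TPM share in Slc11a2 was Slc11a2-207, an incomplete model of 389 nucleotides, at 29.0% and 27.9%. It rested on 193 and 175 fragments of the gene's 6638 and 6403. By fragments, Slc11a2-201 and Slc11a2-205 together held 88.9% in both libraries, against 42.8% and 43.0% by TPM.

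**Figure D3:**
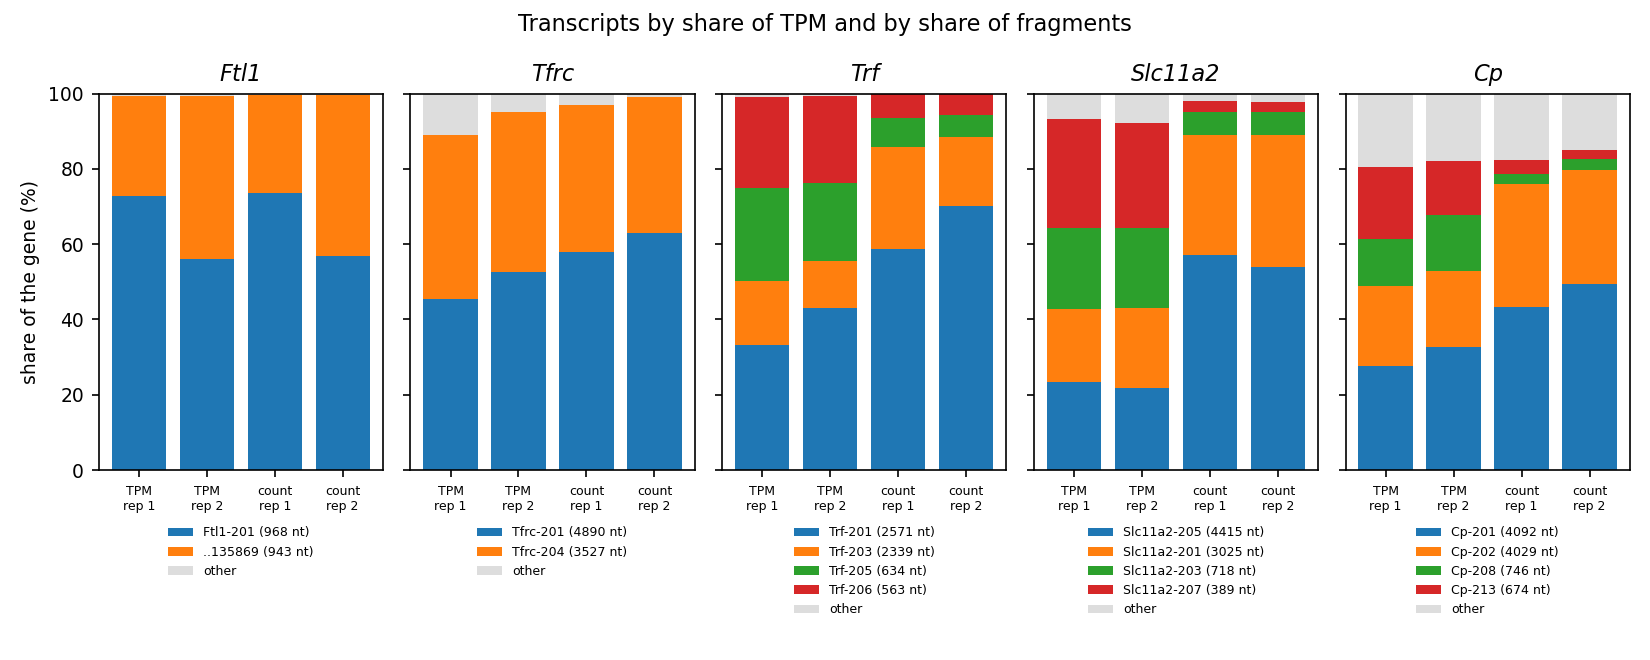
Share of each gene held by its main transcripts (y axis, percent) for Ftl1, Tfrc, Trf, Slc11a2 and Cp, by TPM and by fragments in each library; lengths are in the legends, grey is all other transcripts, and the second Ftl1 entry is ENSMUST00000135869. The short models in green and red take a large part of the TPM bars of Trf, Slc11a2 and Cp and a small part of the fragment bars, and the second Ftl1 transcript is larger in replicate 2.

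Of 14 other genes of iron import, reduction and transferrin-type carriers, 10 reached 1 TPM in each library. Lcn2, a lipocalin that binds iron-carrying siderophores, was at 5287 and 2986 TPM, above every member. Mcoln1, a lysosomal channel that passes iron, was at 213.2 and 168.1 TPM. The ferrireductases that reduce iron before Slc11a2 can move it were led by Steap4, at 89.7 and 94.0 TPM, and Steap3, at 33.5 and 62.8 TPM. Over 2-fold differences were seen in Ltf, lactoferrin, at 8.10 and 35.9 TPM, and, at low level, in Steap1 (1.01 and 0.47 TPM) and Meltf (0.46 and 0.15 TPM).

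The mRNA of the only known cellular iron exporter was low, and that of the oxidase that serves it stood between Slc11a2 and Hmox1. Slc40a1, ferroportin (chr1:45908068-45926523, minus strand), was at 4.02 and 4.04 TPM, with a mean of 4.03 ± 0.014 (SD, n = 2), the closest pair of values among the members. Its point values lay below the lower bounds of the authors' deposited intervals, 4.23 and 4.16 TPM, and the deposited posterior mean was 5.72 and 5.35 TPM. Slc40a1-201 held 96.2% and 94.5% of TPM, or 66.5% and 70.4% by the posterior mean. Importer mRNA exceeded exporter mRNA in both libraries: the Slc11a2 to Slc40a1 ratio was 25.8 and 20.1 by gene TPM. With complete coding transcripts alone, which leaves out the short Slc11a2 models, it was 11.5 and 9.15.

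Cp, ceruloplasmin, the copper oxidase that readies exported iron for transferrin (chr3:19957054-20009145, plus strand), was at 57.6 and 41.1 TPM, with a mean of 49.3 ± 11.7 (SD, n = 2). Its largest transcripts, Cp-201 and Cp-202, held 27.6% and 32.8%, and 21.4% and 20.2%, of TPM. The short models Cp-208 and Cp-213 held 12.4% and 14.7%, and 19.1% and 14.5%. Heph, hephaestin, the related membrane oxidase, was at 12.3 and 13.1 TPM, below Cp in both libraries. Hephl1, a further relative, was at 0.17 and 2.13 TPM, from 32 and 498 fragments, and was the 1 gene of its list over 2-fold apart. The highest of the 7 related genes of oxidation and export was App, the amyloid precursor, at 223.6 and 244.8 TPM, above Cp in both libraries. Slc25a28, a mitochondrial iron importer, was at 44.0 and 42.6 TPM and its relative Slc25a37 at 8.94 and 7.71 TPM, and 6 of the 7 reached 1 TPM in each library.

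Of the haem genes, Hmox1, haem oxygenase 1 (chr8:75093621-75100589, plus strand), was at 16.6 and 17.8 TPM, with a mean of 17.2 ± 0.83 (SD, n = 2). Its count was 860 fragments (exact Poisson 95% interval 803 to 919) in replicate 1 and 1127 (1062 to 1195) in replicate 2. Hmox1-201 held 99.7% and 98.1% of TPM. Hmox2, the constitutive haem oxygenase, was higher, at 43.6 and 38.1 TPM, and the biliverdin reductases Blvrb and Blvra, which act after haem is opened, had 78.1 and 79.0 TPM (Blvrb) and 10.96 and 14.1 TPM (Blvra).

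All 14 other genes of haem and haemoglobin scavenging, breakdown and transport were above the 1 TPM line in each library, with medians of 63.0 and 67.6 TPM. Hp, haptoglobin, which binds free haemoglobin, was at 1184 and 1889 TPM. Next came Pgrmc1, a haem-binding membrane protein (283.4 and 195.8 TPM), Por, which passes electrons to haem oxygenase (249.4 and 175.7 TPM), and the haem enzyme Cat, catalase (161.6 and 155.5 TPM). The macrophage receptor of haptoglobin with haemoglobin, Cd163, was at 3.22 and 1.92 TPM. Lrp1, the receptor for hemopexin with its haem, was at 142.0 and 76.1 TPM. Hp was thus above Trf in both libraries, whereas Hpx, the other plasma scavenger, was near the bottom of the members.

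Hpx, hemopexin (chr7:105591613-105600137, minus strand), was at 4.68 TPM in replicate 1 and 1.30 TPM in replicate 2, with a mean of 2.99 ± 2.39 (SD, n = 2). The counts behind it were 220 fragments (exact Poisson 95% interval 192 to 251) and 76 (59.9 to 95.1). Replicate 1 was 3.60-fold higher by TPM, and 3.33-fold higher as a share of fragments (exact conditional 95% interval 2.55 to 4.38, for counting error only). Fragments from amplified libraries are not independent molecules, so these intervals are too narrow for anything beyond counting. With the pseudocount of 1 TPM, the difference was -1.30 on the log2 scale.

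Hpx was the 1 gene among the 9 members with a mean of 20 fragments or more that lay over 2-fold apart, against 7.77% of all genes tested (1315 of 16920) and 6.92% of the protein-coding ones; 5.3% had the higher value in replicate 1 and 2.47% in replicate 2. A share of 1 in 9 is near that background. The other 8 tested members were within 1.5-fold, so 1 of 9 was outside it, against 23.3% of all genes tested. The median log2 difference was -0.14 over the 10 members and -0.11 over the genes tested, whose SD was 0.43.

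The direction of the small differences was uneven: Ftl1, Trf, Tfrc, Hmox1 and Slc40a1 were higher in replicate 2 by TPM, and Fth1, Slc11a2, Cp, Hpx and Hamp in replicate 1. TPM placed the median of all genes at -0.15 on the log2 scale, against 0.00 with TMM scaling and 0.01 with DESeq2 size factors. Relative to the TPM median, the log2 ratio without a pseudocount was 0.27 for Ftl1, 0.25 for Trf, -0.15 for Fth1, -0.21 for Slc11a2, -0.34 for Cp and -1.70 for Hpx. Each of the 10 kept its direction under TMM and DESeq2 scaling, while Slc40a1 turned with the posterior mean, and Slc40a1 and Ftl1 turned with complete coding transcripts alone.

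Hamp, hepcidin, the hormone that the liver secretes to hold back ferroportin (chr7:30942368-30944032, minus strand), was the lowest member by mean level and in replicate 2, and stood above Hpx and Slc40a1 in replicate 1. It was at 5.19 TPM in replicate 1, from 34 fragments (exact Poisson 95% interval 23.5 to 47.5), and at 0.38 TPM in replicate 2, from 3 fragments (0.62 to 8.77). The mean was 2.79 TPM ± 3.401 (SD, n = 2). As a share of fragments, replicate 1 was 13.0-fold higher, with an exact conditional 95% interval of 4.10 to 66.3. The authors' deposited intervals, 3.60 to 7.06 TPM and 0.090 to 1.01 TPM, did not overlap. Its mean count was under 20 fragments, so it was not among the genes tested for a 2-fold difference. The mRNA is 392 nucleotides long, with an effective length of 175.6 and 168.6 nucleotides, which raises its TPM for few fragments. Its neighbour in sequence, Hamp2, had 17 and 8 fragments, at 2.07 and 0.81 TPM.

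Most hepatocyte and erythroid markers were, like Hpx and Hamp, higher in replicate 1. Of 8 hepatocyte markers, 5 reached 1 TPM in each library and none was at 0. Their summed level was 278.2 TPM in replicate 1 and 95.9 TPM in replicate 2. Most of each sum came from Cyp2e1 alone, at 211.0 and 57.3 TPM. Over 2-fold higher in replicate 1 were 7 of the 8, among them Alb, albumin, at 31.6 and 3.54 TPM, Apoa2 at 15.2 and 1.15 TPM and Ttr at 5 and 0.56 TPM. Serpina1a went the other way, at 3.92 and 31.8 TPM. Of 8 erythroid markers, 5 were over 2-fold higher in replicate 1 and the summed level was 10311 and 4071 TPM. Over all genes tested, 5.3% were over 2-fold higher in replicate 1. So were 2 of the 8 epididymis markers, Lcn8 (7811 and 3137 TPM) and Spag11b (3128 and 1539 TPM), and none was over 2-fold higher in replicate 2. With 2 libraries each gene has 1 ratio, so a shared direction does not link genes to each other. The part of the hepatocyte and erythroid genes in the Hpx and Hamp differences was not tested. In tissue RNA, a larger number of cells of a type and more RNA per cell cannot be told apart.

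**Figure D4:**
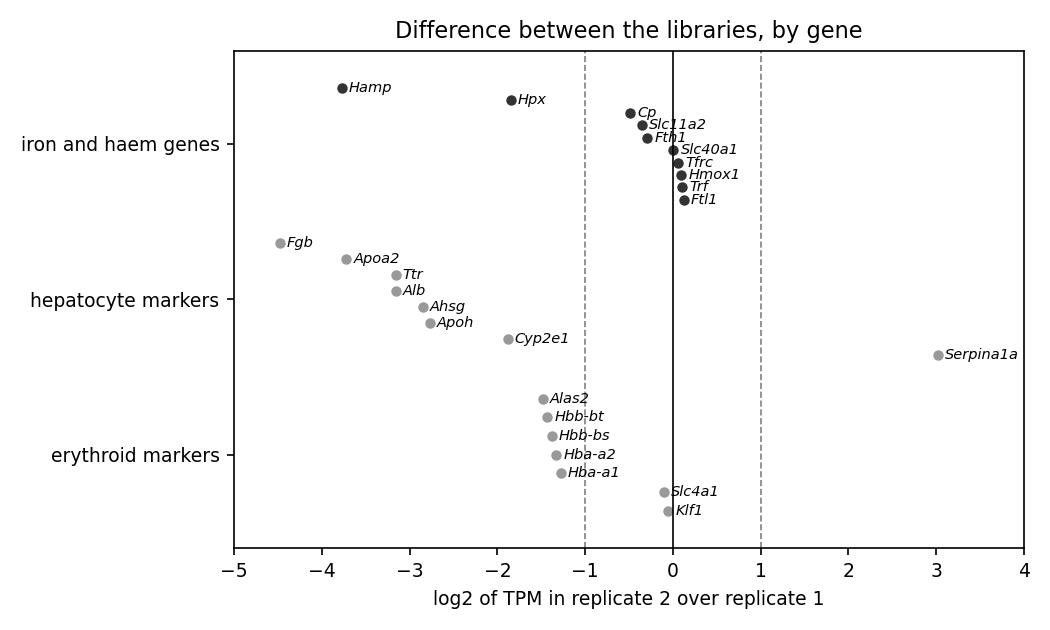
log2 of TPM in replicate 2 over replicate 1 (x axis, no pseudocount) for the 10 iron and haem genes and for hepatocyte and erythroid markers, with dashed lines at 2-fold; only markers above 0 in each library are drawn. Hpx and Hamp lie left of the lower line beside 7 hepatocyte markers, and the other 8 iron and haem genes lie between the lines.

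Most genes on the lists of iron regulatory proteins and of hepcidin control reached 1 TPM in each library, as did 61.6% of all protein-coding genes. The iron regulatory proteins, which bind the elements printed above, were Aco1 at 129.5 and 109.7 TPM and Ireb2 at 7.16 and 6.87 TPM. Fbxl5, which marks the second for destruction, was at 23.9 and 24.6 TPM, its partners Skp1a and Cul1 at 35.95 and 29.5 TPM and at 32.0 and 28.9 TPM, and all 5 genes of that list reached 1 TPM in each library. Among 15 genes of hepcidin control, a list that includes Hamp2, 11 were at that level, led by Smad4 (49.9 and 45.5 TPM) and Hfe (28.0 and 46.5 TPM). Smad1 was at 25.4 and 20.9 TPM, Smad5 at 25.6 and 19.2 TPM and the ligand Bmp6 at 13.7 and 13.2 TPM. Hfe2, the hemojuvelin co-receptor, was at 0.13 and 0.43 TPM, over 2-fold apart on 9 and 36 fragments, and Tmprss6, the protease that cleaves it, at 0.65 and 0.46 TPM.

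All 9 genes of haem synthesis and all 9 of the haem and oxidant response reached 1 TPM in each library. Alas1, which starts haem synthesis outside red cells, was at 115.9 and 114.7 TPM and Alad at 385.7 and 322.2 TPM. Urod was at 114.8 and 96.2 TPM. Alas2, the red-cell form of Alas1, was over 2-fold higher in replicate 1, at 30.9 and 11.1 TPM. Highest in the oxidant response were Gclm, of glutathione synthesis (142.3 and 83.6 TPM), Srxn1, sulfiredoxin (88.8 and 95.1 TPM), and Keap1, which restrains Nfe2l2 (55.6 and 52.6 TPM). Bach1, which represses Hmox1 until haem binds it, was at 8.70 and 7.70 TPM, and Nfe2l2, which activates Hmox1, at 41.0 and 44.1 TPM. Of other genes known to carry iron-responsive elements, Alas2 was found by the search used for the members, Epas1 when an unpaired base was allowed and Cdc14a with 4 of 5 pairs.

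**Figure D5:**
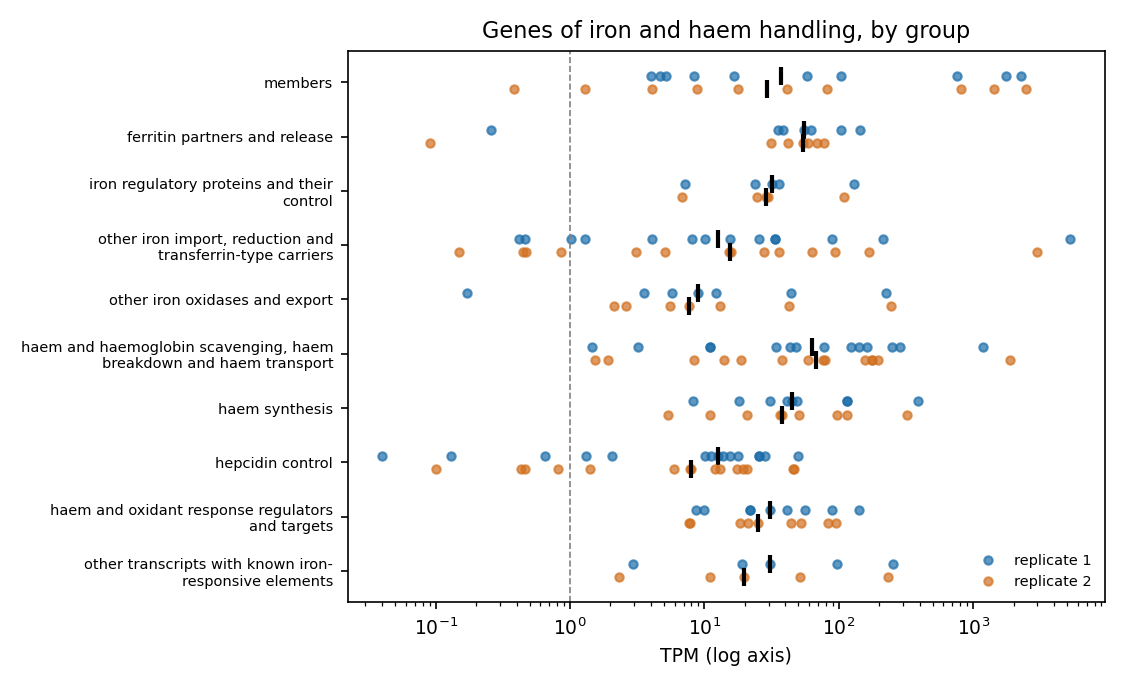
TPM (log axis) of each gene in the 10 members and in 9 lists of related genes, with replicate 1 above replicate 2 in each row, a black bar at each median and a dashed line at 1 TPM. The member row spans the range from hepcidin to the ferritins, and its medians, 37.1 and 29.4 TPM, lie among those of the lists.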

How the data were processed

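Polyadenylated RNA of gonadal fat pad was measured in 2 libraries of 1 group. The authors deposited expected counts, TPM, FPKM and a percent of gene TPM per transcript, with posterior mean values and interval bounds whose level is not stated, per the file headers. The notes beside the deposited tables name build mm10 and annotation M4; aligner and quantifier names were not given in the sources used here. Tables of junctions and contigs on another build were not used here.

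Genes were matched to symbols by Ensembl identifier. The log2 difference was log2 of TPM + 1 in replicate 2 over replicate 1. A gene was called over 2-fold apart where its TPM ratio passed 2 and the 2 expected counts averaged at least 20. Intervals were exact at 95% and cover counting error only. Total counts of 47106979 and 54129473 fragments set the precision: 3 fragments were worth 0.458 and 0.380 TPM for Hamp. Scaling alternatives used edgeR 4.0.16 (TMM) and DESeq2 1.42.0 on rounded expected counts, with no model fitted and no test. Similar ferritin genes were found with blastn 2.17.0. Elements were searched in GENCODE M21 transcripts. On simulated data of 16920 genes, the 2-fold rule recovered 200 of 200 genes made 4-fold higher, with 19 others called. The search found 200 of 200 planted elements. The simulated counts held counting error only, less than the spread between these libraries, so those calls give no error rate for them. Planted elements were built to the searched pattern, so finding them shows only that the search ran as written.

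The members and lists were chosen with earlier results of these data known. All 10 members are named. From each list of related genes the text names the 4 of highest level, except in the lists of haem synthesis and of other element-bearing genes, where a result is not reported here, and textbook members under 1 TPM; other list genes, named for their role or as over 2-fold apart, were chosen after their values were seen.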

Additional observations from a re-analysis of the deposited data

How the results depend on the processing

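The median level of the 10 members, 33.3 TPM, was 26.8 as FPKM, 22.0 TPM with complete coding transcripts only, and 29.4 to 37.1 TPM with either replicate left out. The number of members over 2-fold apart, 1 (Hpx), became 2 with no minimum count, which adds Hamp. It stayed at 1 under the other 9 settings tried. Among these, the setting with another pseudocount could not change the number, because the call uses the TPM ratio without a pseudocount. The light to heavy ferritin ratio of 1.51 turned to 0.956 with complete coding transcripts only, which leaves out ENSMUST00000135869; it was 1.30 to 1.73 with a replicate left out and 1.57 with ferritin-like rows added. The count of members expressed was 9 to 10 with a replicate left out, 10 at a minimum of 0.1 TPM and 6 at 10 TPM. The 21 transcripts at 10% or more of their gene in both libraries were 15 by fragments and 17 among coding transcripts, and 21 with either replicate left out. Members with an element numbered 4, and 5 with 4 of 5 pairs or with 1 unpaired base. Settings that use complete coding transcripts, an unpaired base, similar genes by sequence or the median ratio of all genes were chosen after seeing the data. FPKM is another scale, and the complete coding setting drops the TPM of other models. Groups of 2 libraries are too small to single out a library, the depth leaves 3 fragments for Hamp in replicate 2, and no paired analysis was possible because there is 1 group.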
